A study of Mus musculus with 8 samples.

Results

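Inhibitory checkpoint receptors are surface proteins that dampen activated lymphocytes when they meet their ligands. The 7 genes described here were Pdcd1, Ctla4, Lag3, Tigit, Havcr2, Cd160 and Btla, chosen by symbol from the 33696 genes of the expression matrices, and all 7 were found. They were followed in 5 groups of cells from the brains of mice with ependymoma, a tumor of the ventricular lining. The mice carried NestinCreERT2;Fus1;RFPTdT, in which a tamoxifen-inducible Cre under the Nestin promoter, active in neural stem cells, switches on the ZFTA-RELA fusion and a red reporter, and this genotype was shared by both arms. At 3 weeks of age they were assigned at random to mavrilimumab, an antibody against the receptor for GM-CSF, at 5 mg/kg, or to vehicle IgG. An age of 6 to 8 weeks is recorded for the mice of both arms. The study describes its single-cell data of tumors from both arms as taken at recurrence. The age of each arm at recurrence is not given, so a difference in age cannot be told apart from the treatment. Each arm had 2 droplet single-cell expression libraries, and 3 files of T cell receptor (TCR) sequences were joined to them. The study describes pooled experiments for each arm, so a library stands for pooled mice, and how many went into each library is not given in the labels. The p-values then measure only the spread between these libraries, which may be technical.

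Pdcd1 encodes PD-1, which recruits phosphatases to the T cell receptor and the costimulatory receptor CD28. Ctla4 encodes CTLA-4, which competes with CD28 for CD80 and CD86 and is carried constitutively by regulatory T (Treg) cells. Lag3 binds MHC class II, Tigit binds the poliovirus receptor family, Havcr2 encodes TIM-3, and Cd160 and Btla both bind the herpesvirus entry mediator. In tumors and chronic infection, CD8+ T cells that meet antigen for a long time carry several of these receptors at once, a state called exhaustion. Havcr2 is also expressed by myeloid cells, microglia among them.

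On the mouse assembly GRCm38.p6 of RefSeq, Ctla4 spans chr1:60909025-60915832, Pdcd1 chr1:94038305-94052553, Cd160 chr3:96798763-96829351, Lag3 chr6:124904359-124912434 and Havcr2 chr11:46454931-46481255. Tigit (chr16:43626137-43665125) and Btla (chr16:45223705-45252895) lie on the same chromosome. The 250 bases before the annotated start are printed for Havcr2 and Btla, because both hold the letters GAGGAAGT, a form of the site of the myeloid and B cell factor PU.1, while their levels in microglia stood far apart. Capitals mark these letters and, in Havcr2 alone, the AP-1 letters TGANTCA. Both are on the plus strand of GRCm38.p6, at chr11:46454681-46454930 for Havcr2 and chr16:45224087-45224336 for Btla, the latter inside the annotated span of the gene.
Havcr2: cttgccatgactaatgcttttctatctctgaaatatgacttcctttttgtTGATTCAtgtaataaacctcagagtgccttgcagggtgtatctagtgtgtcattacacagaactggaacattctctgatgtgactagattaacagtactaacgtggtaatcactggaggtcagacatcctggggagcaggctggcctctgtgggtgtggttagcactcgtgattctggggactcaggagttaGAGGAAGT
Btla: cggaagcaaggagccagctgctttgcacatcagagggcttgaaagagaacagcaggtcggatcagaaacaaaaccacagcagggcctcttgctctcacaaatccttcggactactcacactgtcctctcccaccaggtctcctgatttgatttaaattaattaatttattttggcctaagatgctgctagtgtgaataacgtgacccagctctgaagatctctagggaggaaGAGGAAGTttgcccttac

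On both strands, GAGGAAGT was present in 2.44% of the 32851 mouse promoter windows of this length and TGANTCA in 6.75%. Of the other 2 motifs searched, the NFAT letters TGGAAA (18.6% of windows) were found once among the members, in Ctla4, and the NR4A letters AAAGGTCA (1.34%) in none. Promoter sequences were matched for 6 of the 7 members, Lag3 being the member without one, and those of Pdcd1, Tigit and Cd160 held none of the 4 motifs. A match of letters is a description of the sequence and was not tested as a binding site.

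In all, 39632 cells with at least 1000 unique molecular identifiers (UMIs, 1 per captured RNA molecule), 200 to 6000 genes and at most 10% mitochondrial counts were kept. Vehicle IgG 1 gave 984 of these, vehicle IgG 2 gave 26746, mavrilimumab 1 gave 6412 and mavrilimumab 2 gave 5490, with median depths from 3296 to 11759 UMIs per cell. CD8 T cells (a Cd3e UMI and at least 2 of Cd8a and Cd8b1) numbered 70, 1773, 1967 and 1878 in that order. Treg cells (Cd3e and Foxp3) numbered 15, 28, 832 and 101, and other CD4 T cells (Cd3e and Cd4, no Foxp3, Cd8a or Cd8b1) 89, 110, 1340 and 359. Natural killer (NK) cells (no Cd3e, at least 2 UMIs of Ncr1 and Klrb1c) numbered 5, 452, 20 and 376, and microglia (at least 2 of P2ry12 and Tmem119) 588, 651, 237 and 806. None of the 7 receptors was used to define a group. The Treg and NK sums of vehicle IgG 1, under 20 cells each, were left out of every test, so these groups had 1 vehicle library.

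All 5 pan-T genes were above 0 in every library of the 3 T cell groups. All 7 NK genes were above 0 in the NK group and all 10 microglial genes in the microglia. The microglial genes there summed to between 11128 and 32698 on the counts-per-million (CPM) scale. These lists hold genes that the group rules themselves used (Cd3e, Ncr1, Klrb1c, P2ry12 and Tmem119), so the presence of those genes is no check of the groups. Microglial genes were also present in the CD8 T sums, at 751 to 3119 CPM with 8 to 10 of 10 above 0. T cell genes were present in microglia at 17.1 to 319 CPM, with 5 of 5 above 0. In the NK sums, T cell genes summed to 361 CPM in vehicle IgG 2, 873 in mavrilimumab 1 and 547 in mavrilimumab 2, with Cd3e at 0 by the rule. There Cd3g was at 65.6, 148 and 50.4 CPM, Cd3d at 6.56, 132 and 3.77 CPM and Trac at 7.22, 57.7 and 6.95 CPM in the same order. Lck, the remaining gene of that list, made up the rest of each sum. Trdc, a gamma-delta T cell gene outside the list, was at 10.5, 115 and 24.0 CPM. The part of these genes in the NK values was not tested. In the Treg sums the 2 CD8 genes were at 9.81 CPM in vehicle IgG 2, 224 in mavrilimumab 1 and 360 in mavrilimumab 2, against 88.3, 254 and 223 CPM for the CD4 T cell genes Cd4 and Cd40lg. The CD8 sum was below the CD4 T sum in mavrilimumab 1 and above it in mavrilimumab 2. Treg cells that met no other group's rule numbered 28 in vehicle IgG 2, 760 in mavrilimumab 1 and 81 in mavrilimumab 2. Fits with such cells only were run as an alternative. The part of the CD8 genes in the Treg values was not tested otherwise. In the other CD4 T sums the Treg genes (Il2ra, Ikzf2 and Ikzf4, with Foxp3 at 0 by the rule) summed to 114 CPM in vehicle IgG 1 and 246 in vehicle IgG 2. They summed to 498 CPM in mavrilimumab 1 and 87.4 in mavrilimumab 2, and their part in the values of this group was not tested. The 8 neural or tumor genes summed to 567 CPM in CD8 T, 696 in Treg, 898 in other CD4 T, 657 in NK and 1931 in microglial sums of vehicle IgG 2, against 0 to 188 CPM in the sums of the other libraries. They move with vehicle IgG 2 in every contrast by treatment, and their part in those contrasts was not tested. Between 4 and 86 cells per library met the rules of more than 1 group and were counted in each of those groups. Any pair of expression libraries shared between 0 and 60 barcodes. Vehicle IgG 1 held few lymphocytes, and vehicle IgG 2 had the lowest median depth, 3296 UMIs against 3758 in mavrilimumab 1. The study describes the tumor cells sequenced here as CD45+ cells from outside the vessels. In vehicle IgG 2, 11085 of the 26746 cells kept had neural transcripts and no Ptprc (CD45) or Cd3e, whatever group rule they met. Such cells numbered 2 in vehicle IgG 1, 7 in mavrilimumab 1 and 378 in mavrilimumab 2. The part of this make-up in the contrasts was not tested. Doublet scores flagged 21.4% of the cells of vehicle IgG 2 against at most 5.13% elsewhere. These shares were set by an assumed 0.8% per 1000 cells, so they follow cell number and measure no difference in quality.

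The sample names inside the TCR files go against the titles. In all 3 files analysed the inner name gives the other treatment, and the barcodes of the TCR file titled mavrilimumab 1 match the expression library mavrilimumab 2 (2491 of 2749), while those of TCR mavrilimumab 2 match mavrilimumab 1 (4867 of 5659). TCR vehicle IgG 1 matched vehicle IgG 1 (182 of 193). Libraries below carry the titles of the expression libraries, and every direction by treatment rests on those labels. Which label is right was not tested.

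Background in cells that should lack the receptors could be read in 2 libraries. In vehicle IgG 2, 10839 cells with neural transcripts, no Ptprc or Cd3e and the rule of no cell group met (median 4935 UMIs) had a UMI of a given receptor in at most 0.58% of cells, against 1.52% to 27.1% in CD8 T cells of that library at a median of 2731 UMIs. In mavrilimumab 2, 347 such cells (median 3701 UMIs) had one in at most 0.86%, against 2.56% to 51.4% of CD8 T cells at a median of 12558 UMIs. The other libraries held 2 such cells each and gave no reference. Barcodes with at most 99 UMIs, which hold free RNA, carried Pdcd1 at 126 CPM and Ctla4 at 141 CPM in mavrilimumab 1. In that library free RNA stood above the CD8 T level for Ctla4, Tigit (146 CPM), Btla (58.8) and Havcr2 (38.0). It also did for Havcr2 in vehicle IgG 1 (124 CPM) and mavrilimumab 2 (43.6), and for Lag3 in vehicle IgG 1 (109) and mavrilimumab 2 (26.3). Its part in the levels below was not tested.

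Across the cell groups, the receptors divided into those of T cells, those shared with NK cells, and those of microglia. Ctla4 was highest in Treg cells, Cd160 in NK and CD8 T cells, Btla in other CD4 T cells, and Lag3 and Havcr2 in microglia. Pairwise differences were tested with the edgeR quasi-likelihood test on summed counts, with the library as a block and Benjamini-Hochberg adjustment over 14280 genes. Of the 70 contrasts between groups (7 genes, 10 pairs), 32 passed an adjusted p of 0.05. In summed counts, fewer cells with a transcript and less transcript per cell cannot be told apart. Of these 32, 22 were among the 28 contrasts against microglia and 10 among the 42 between lymphoid groups.

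**Figure D1:**
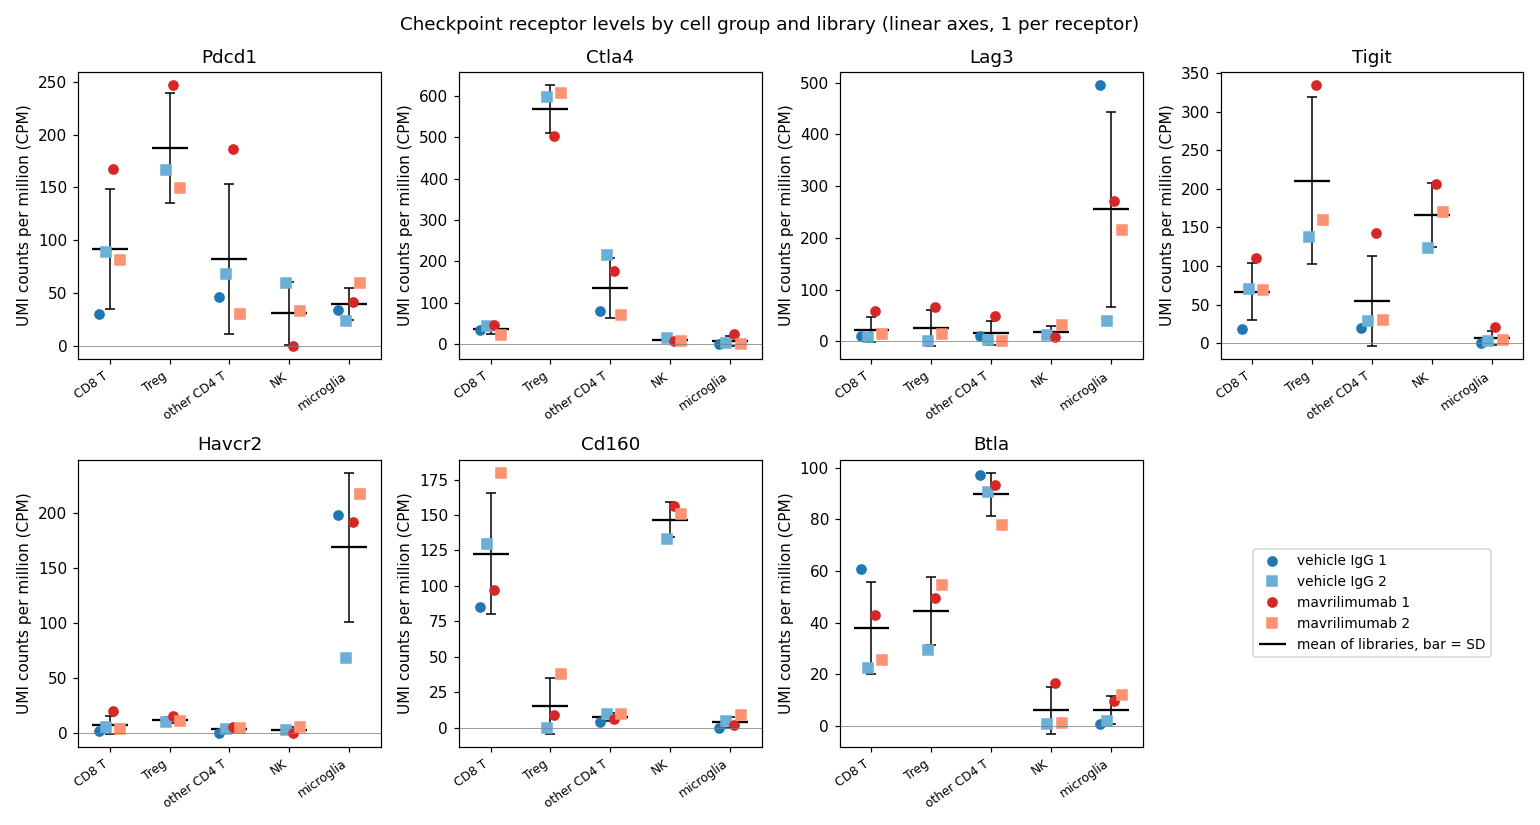
Level of each receptor in each cell group, on the counts-per-million scale (CPM, linear axes that differ between receptors). Points are libraries, the horizontal line is their mean and the bar its SD; Treg and NK cells lack vehicle IgG 1. Ctla4 stands highest in Treg cells, Cd160 in NK and CD8 T cells, Btla in other CD4 T cells, and Lag3 and Havcr2 in microglia.

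Ctla4 was at 598 CPM in Treg cells of vehicle IgG 2, 502 in mavrilimumab 1 and 606 in mavrilimumab 2. Of the 28 Treg cells of vehicle IgG 2, 15 were flagged by doublet score. The other CD4 T cells held 80.1, 216, 177 and 69.7 CPM (vehicle IgG 1 and 2, then mavrilimumab 1 and 2), and CD8 T cells 33.2, 44.1, 45.6 and 21.0 CPM. The ranges of these 3 groups did not overlap. Mean levels were 569 ± 57.9 CPM in Treg cells (SD, n = 3), 136 ± 72.2 in other CD4 T cells (n = 4) and 36.0 ± 11.4 in CD8 T cells (n = 4), and NK cells and microglia followed at 10.1 ± 3.79 (n = 3) and 7.47 ± 11.6 (n = 4), whose spreads overlap. CD8 T cells stood lower than Treg cells by a log2 difference of -3.80 (SE 0.66, edgeR adjusted p = 0.0070). Treg cells stood above NK cells by 5.62 and other CD4 T cells above NK cells by 3.57 on the log2 scale (edgeR adjusted p = 0.0018 and 0.014). The CD8 T against Treg call was lost without mavrilimumab 2 (log2 -3.08, adjusted p = 0.28), as was Treg against NK (adjusted p = 0.15), and other CD4 T against NK was lost without vehicle IgG 2 or mavrilimumab 2 (adjusted p = 0.13 and 0.23). The step from other CD4 T to Treg cells, 2.05 on the log2 scale, did not pass (edgeR adjusted p = 0.25).

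Cd160, which NK and cytotoxic T cells carry, was highest in NK and CD8 T cells. NK cells held 133 CPM in vehicle IgG 2, 157 in mavrilimumab 1 and 150 in mavrilimumab 2, and CD8 T cells held 85.1, 130, 96.9 and 180 CPM. These neighbours overlapped and their difference was 0.25 on the log2 scale (SE 0.50, edgeR adjusted p = 0.93). Treg cells held 0, 9.04 and 37.6 CPM and other CD4 T cells 3.82 to 9.69 CPM, all below the lowest CD8 T library. CD8 T cells exceeded other CD4 T cells by 4.32 (SE 0.55, edgeR adjusted p = 0.0022) and Treg cells by 3.27 (SE 0.60, edgeR adjusted p = 0.0086) on the log2 scale. Both calls were lost without mavrilimumab 1 (adjusted p = 0.074 and 0.22) or mavrilimumab 2 (adjusted p = 0.11 and 0.15), with log2 differences from 3.15 to 4.54. Microglia were lowest, at 3.80 ± 3.76 CPM (SD, n = 4).

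Btla was steadiest in other CD4 T cells, at 97.3, 90.5, 93.2 and 77.9 CPM, and at 29.4 to 54.4 CPM in Treg cells and 22.3 to 60.6 CPM in CD8 T cells. NK cells held 0.66, 16.5 and 0.99 CPM, the second from 2 UMIs in 20 cells. Btla was thus lower in every NK library than in any T cell library. The log2 difference from NK cells was 4.95 (SE 1.05) for CD8 T, 5.04 (SE 1.11) for Treg and 6.15 (SE 1.04) for other CD4 T cells, with edgeR adjusted p of 0.017, 0.017 and 0.0026. Without mavrilimumab 2 all 3 calls were lost (adjusted p = 0.40, 0.45 and 0.12), and those of CD8 T and Treg cells also without vehicle IgG 2 (adjusted p = 0.11 and 0.10) or mavrilimumab 1 (0.058 and 0.088), with every difference still at least 3.69. CD8 T and Treg cells, neighbours in the order, did not differ beyond their spread (log2 -0.10, edgeR adjusted p = 1.0).

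Tigit separated all lymphoid groups from microglia. Treg cells held 137, 335 and 160 CPM, NK cells 123, 206 and 170, CD8 T cells 18.6, 69.6, 110 and 69.3, and other CD4 T cells 19.1, 29.1, 142 and 29.3 CPM. Microglia held 0 to 20.3 CPM, and only the vehicle IgG 1 values of CD8 T and other CD4 T cells fell within that range. Against microglia the log2 differences ran from 3.48 in other CD4 T cells to 5.07 in Treg cells, and all 4 passed (edgeR adjusted p from 3.0e-05 to 0.00017). Among the lymphoid groups 0 of 6 Tigit contrasts passed, the lowest edgeR adjusted p being 0.098 for other CD4 T against NK cells, and 2 of the 6 had an unadjusted p under 0.05.

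Pdcd1 differed least between groups. Treg cells held 167, 247 and 150 CPM, CD8 T cells 30.3, 88.5, 167 and 81.5, other CD4 T cells 45.8, 67.9, 187 and 29.97, microglia 34.0, 23.8, 41.2 and 59.0, and NK cells 59.0, 0 and 33.2 CPM. The ranges of CD8 T, other CD4 T and NK cells all overlapped those of microglia. Of the 10 contrasts only Treg cells against microglia passed, at 1.79 on the log2 scale (SE 0.57, edgeR adjusted p = 0.025). That call was lost when any library except vehicle IgG 1 was left out (log2 from 1.46 to 2.11, adjusted p from 0.061 to 0.12).

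Lag3 and Havcr2 were highest in microglia. Microglial Lag3 was at 496, 39.2, 272 and 216 CPM, vehicle IgG 2 standing far below the rest, and no lymphoid group exceeded 66.2 CPM in any library. Microglial Havcr2 was at 198, 68.1, 192 and 217 CPM, and the lymphoid groups reached at most 19.2 CPM. Every lymphoid group stood below microglia, by log2 differences between -2.68 and -4.35 for Lag3 and between -4.27 and -5.83 for Havcr2, and all 8 contrasts passed (highest edgeR adjusted p 0.014). Lag3 lost its call in Treg cells without mavrilimumab 2 (adjusted p = 0.097) and in NK cells without vehicle IgG 2 or mavrilimumab 2 (0.059 and 0.093). In vehicle IgG 2, whose microglia were lowest in both genes, 248 of 651 microglia were among the 21.4% of its cells flagged at the assumed doublet rate. Its microglial genes summed to 11128 CPM against 31728 to 32698 CPM in the other libraries.

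The counts of members called were read against all genes. In CD8 T minus Treg cells 2 of 7 were called, where 4.22% of genes were. In CD8 T minus other CD4 T cells it was 1 of 7 (1.76% of genes), and in CD8 T minus NK cells 1 of 7 (5.47%). Treg minus other CD4 T cells gave 0 of 7, with 0.098% of genes called by edgeR and 157 genes by DESeq2, and 2 members at an unadjusted p under 0.05. Treg minus NK cells gave 3 of 7 (5.76%) and other CD4 T minus NK cells 3 of 7 (8.82%). Against microglia a large part of all genes differed: 6 of 7 members for CD8 T cells (54.7% of genes), 7 of 7 for Treg cells (37.9%), 5 of 7 for other CD4 T cells (49.2%) and 4 of 7 for NK cells (35.3%). Those counts against microglia were near to or above what the bulk of genes gave, and the direction of Lag3 and Havcr2 was opposite to that of the 5 other receptors wherever those passed.

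Genes whose level ran most like a receptor over the 18 library and group sums are a description only, since the sums share libraries. Icos, the costimulatory partner in the same family, was nearest to Ctla4 (Pearson r = 0.98, log2(CPM + 10), 7588 genes compared). Lyz2, a myeloid lysozyme, and Ccl6 were nearest to Havcr2 (both r = 0.98), and Slc16a6 to Lag3 (r = 0.94). Cdh1 and Itga1, genes of tissue-resident lymphocytes, were nearest to Cd160 (r = 0.98 and 0.97), Tnfrsf9 to Tigit (r = 0.94), Tesc and Cd28 to Btla (both r = 0.95) and Hnrnpll to Pdcd1 (r = 0.93). Among the receptors themselves, Lag3 and Havcr2 ran together (r = 0.88), then Ctla4 and Btla (r = 0.71) and Pdcd1 and Ctla4 (r = 0.69).

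How many receptors a cell showed depended on depth, so each cell was thinned to 1000 UMIs. In CD8 T cells the mean number detected was then 0.24, 0.35, 0.48 and 0.32 per cell (vehicle IgG 1 and 2, mavrilimumab 1 and 2), and 2.59%, 5.06%, 9.60% and 4.14% of cells showed at least 2. Without thinning the same shares were 42.9%, 21.5%, 41.6% and 51.8%, an order that follows neither the thinned shares nor the CPM. Treg cells showed at least 2 receptors in 17.5%, 25.4% and 14.2% of thinned cells, higher than any CD8 T library. Other CD4 T cells showed at least 2 in 2.64%, 3.78%, 12.2% and 1.82%, and mavrilimumab 1 stood apart as it did in CD8 T cells. The Treg genes in the other CD4 T sums were also highest in mavrilimumab 1 (498 CPM), and their part in these shares was not tested.

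**Figure D2:**
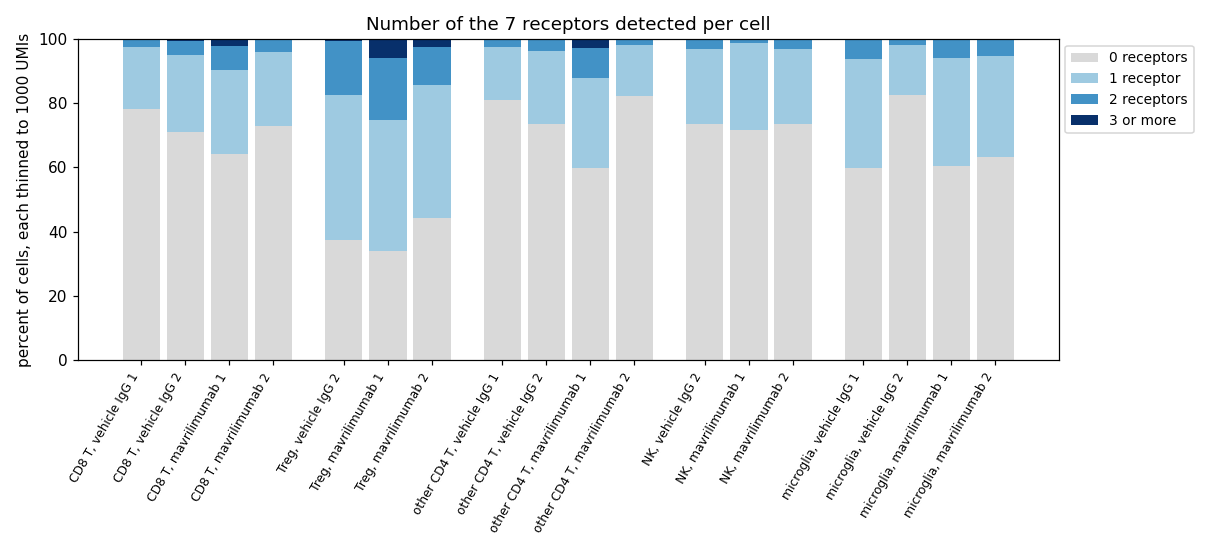
Percent of cells with 0, 1, 2 and 3 or more of the 7 receptors after each cell was thinned to 1000 UMIs, by cell group and library (stacked bars, linear axis from 0 to 100). Treg cells show the highest shares with 2 or more, from 14.2% to 25.4%, and in CD8 T and other CD4 T cells mavrilimumab 1 is highest.

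By treatment label, 0 members passed the edgeR test in CD8 T cells, other CD4 T cells or microglia, the groups with 2 libraries in each arm. In CD8 T cells Lag3 was at 10.8 and 7.75 CPM in the vehicle libraries and at 58.9 and 13.6 in the mavrilimumab libraries, of which mavrilimumab 2 stood close to vehicle. The fitted difference was 2.05 on the log2 scale (SE 0.78, edgeR adjusted p = 0.94), and 0.74 without mavrilimumab 1. Pdcd1 (30.3 and 88.5 against 167 and 81.5 CPM), Tigit and Havcr2 overlapped between the arms, with log2 differences of 1.05 (SE 0.62), 0.98 (SE 0.65) and 1.61 (SE 1.08). Leaving out 1 library moved Pdcd1 from 0.56 (without vehicle IgG 1) to 2.10 (without vehicle IgG 2), Tigit from 0.44 to 2.34 (the same libraries) and Havcr2 from 0.18 (without mavrilimumab 1) to 3.54 (without vehicle IgG 2). Cd160 differed by 0.42, Ctla4 by -0.20 and Btla by -0.17. No gene of the 12410 tested in CD8 T cells was called (0%), with 509 at an unadjusted p under 0.05 and 25 called by DESeq2.

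Other CD4 T cells had 0 members called of 6 tested (0% of 10400 genes by edgeR, 312 at an unadjusted p under 0.05, 13 by DESeq2), the largest difference of the 6 being Tigit at 1.95 (SE 0.83, edgeR adjusted p = 1.0), from 0.44 without mavrilimumab 1 to 2.62 without mavrilimumab 2. In microglia 0 of 7 were called (0% of 13601 genes, 242 at an unadjusted p under 0.05, 12 by DESeq2). In Treg cells 0 of 7 were called where 1.04% of genes were, and Lag3 and Cd160 were at 0 in the only vehicle library, of 28 cells, so no fold is given. In NK cells 0 of 5 were called where 11% of genes were. NK Pdcd1 was at 59.0 CPM in vehicle IgG 2 and at 0 and 33.2 in the mavrilimumab libraries, and NK Lag3 was at 11.8 against 8.24 and 32.6 CPM. The Treg and NK fits have vehicle IgG 2 as their only vehicle library, assumed to vary like the mavrilimumab libraries, so their calls are no test of the treatment. In NK cells 1208 of the 1277 genes called were lower with mavrilimumab, and DESeq2 called 206 genes. Of the 7 lists of related genes (other inhibitory receptors, ligands, costimulatory receptors, transcription factors, proximal signalling, naive or memory genes and cytotoxic effectors), 0 genes passed by edgeR in CD8 T cells, other CD4 T cells or microglia, and 1 gene was called in each of the Treg fit (a cytotoxic effector, higher) and the NK fit (an inhibitory receptor, lower).

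Microglial Lag3 shows how far 1 library decided these values. With all 4 libraries its difference was -0.13 on the log2 scale (SE 1.24). Without vehicle IgG 1 it was 2.82 (edgeR adjusted p = 7.46e-05), and without vehicle IgG 2 it was -1.01 (edgeR adjusted p = 0.025). Each of these fits has 1 vehicle library, assumed to vary like the mavrilimumab libraries, and called 4842 of 14413 genes without vehicle IgG 1 and 925 of 14583 without vehicle IgG 2. Microglial Btla kept its direction in each fit that left out 1 library, from 2.61 to 3.75, at levels of 0.81 and 2.05 CPM in vehicle against 9.52 and 12.02 with mavrilimumab (edgeR adjusted p = 1.0 with all 4 libraries, unadjusted 0.016, and adjusted p = 0.015 without vehicle IgG 1 and 0.018 without vehicle IgG 2). The 5 T cell genes in the same microglial sums moved the same way, at 17.1 and 96.6 CPM in vehicle against 319 and 234 CPM with mavrilimumab, and their part in the Btla values was not tested.

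The shares of thinned CD8 T cells with a receptor overlapped between the labels. Pdcd1 was detected in 3.56% and 8.09% of vehicle cells and 13.9% and 6.56% of mavrilimumab cells, and Cd160 in 7.13% and 11.3% against 7.96% and 12.8%. The mean difference was 4.41 points for Pdcd1 (0.73 to 8.08 when 1 library was left out) and 3.68 points for Tigit (1.06 to 6.31). The exact permutation test, which cannot go below 0.33 with 2 libraries against 2 and so could not pass, gave p = 0.67 for every receptor except Btla (p = 1.0) and p = 0.67 for the number of receptors per cell. A test of whether the treatment difference itself varied between CD8 T cells and other CD4 T cells, Treg cells or microglia called 0 of 7 members each time, where 0%, 0% and 0% of genes were called by edgeR, DESeq2 called 1, 5 and 1 genes, and 459, 778 and 390 genes had an unadjusted p under 0.05. Relabelling by the names inside the TCR files concerns the 3 libraries with such a file and so the fit without vehicle IgG 2. It turns the sign of every CD8 T difference there by construction and leaves its size. In that fit, with 1 library in an arm, Pdcd1 was at 2.10 by title and -2.10 relabelled on the log2 scale, and Tigit at 2.34 and -2.34.

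Within CD8 T cells, Lag3 and Ctla4 were higher in cells with a Pdcd1 UMI than in cells without one, in each of the 3 libraries with at least 20 cells of both kinds. Lag3 was at 17.1 CPM in Pdcd1-detected cells and 5.71 in undetected cells of vehicle IgG 2, at 110 and 27.7 in mavrilimumab 1, and at 28.5 and 7.03 in mavrilimumab 2. The difference was 1.91 on the log2 scale (SE 0.12, edgeR adjusted p = 0.0015) and kept its call when any 1 library was left out (log2 from 1.81 to 1.95). Ctla4 was at 80.1 and 36.2, 71.4 and 29.7, and 27.5 and 18.1 CPM in the same order, a difference of 0.96 (SE 0.14, edgeR adjusted p = 0.035) that lost its call without vehicle IgG 2 or without mavrilimumab 1 (adjusted p = 0.081 and 0.073). These were 2 of the 6 other members, where 1.07% of genes were called.

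**Figure D3:**
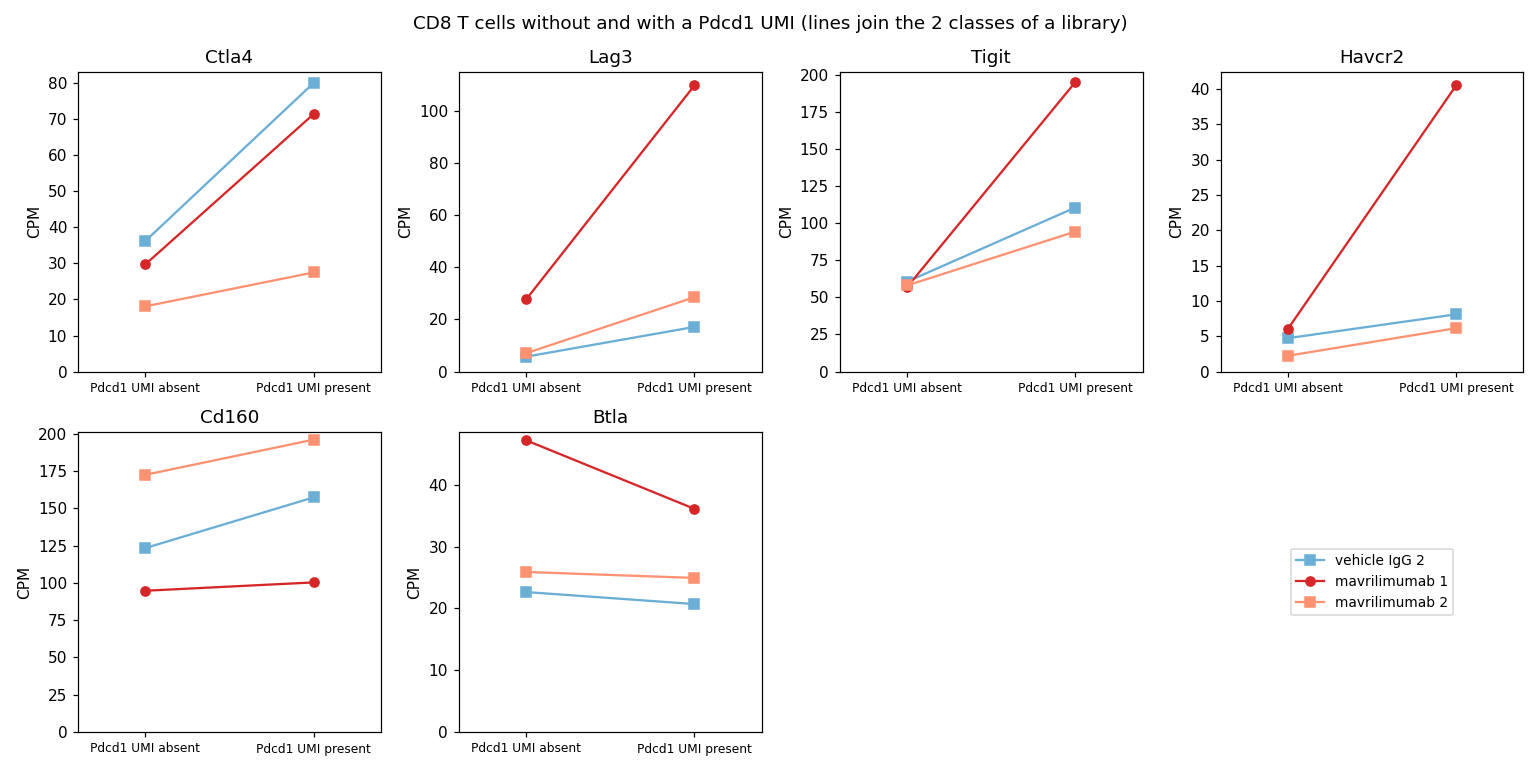
Levels (CPM, linear axes from 0) of the 6 other receptors in CD8 T cells without and with a Pdcd1 UMI, a line joining both classes of a library. Ctla4, Lag3, Tigit and Havcr2 rise to the right in all 3 libraries, and Btla is lower with Pdcd1 in all 3.

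Tigit (110 against 60.6, 195 against 56.9, and 94.4 against 58.1 CPM) and Havcr2 (8.10 against 4.72, 40.5 against 6.04, and 6.14 against 2.23 CPM) were higher with Pdcd1 in all 3 libraries, but the size varied and neither passed (log2 1.09, SE 0.25, edgeR adjusted p = 0.20, and log2 1.80, SE 0.37, edgeR adjusted p = 0.082). Tigit passed without mavrilimumab 1 (log2 0.72, adjusted p = 0.019) and Havcr2 without mavrilimumab 2 (log2 2.13, adjusted p = 0.015) or without vehicle IgG 2 (log2 2.10, adjusted p = 0.0496). Cd160 differed by 0.17 and Btla by -0.23, the only receptor at a lower level with Pdcd1, although its thinned share was higher with Pdcd1 in vehicle IgG 2 (2.67% against 2.25% of cells). Cells with a Pdcd1 UMI were deeper, at a median of 14772 against 11635 UMIs in mavrilimumab 2, and after thinning the share with the other receptor was still higher with Pdcd1 in 16 of 18 pairs of library and receptor. Thinned shares were 3.13 to 3.38 times as high for Lag3, 1.96 to 2.66 times for Tigit and 1.95 to 2.21 times for Ctla4.

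Other pairs of receptors in CD8 T cells are a description over the same libraries. By the lowest ratio over the libraries, Lag3 and Havcr2 were the closest pair, the thinned share of Havcr2 being 4.63 to 5.04 times as high in cells with Lag3. For Ctla4 and Havcr2 the ratio ran from 1.21 to 5.97. Lag3 and Havcr2 were also the receptors highest in microglia, and the part of microglial transcripts in this pair was not tested. In 4 pairs the thinned share of the second receptor was lower with the first in all 3 libraries, namely Ctla4 and Cd160 (0.44 to 0.64 times), Tigit and Btla (0.48 to 0.76 times), Lag3 and Btla (0.036 to 0.76 times) and Havcr2 and Btla (0.16 to 0.45 times, 18 cells with both). In microglia, 897 cells held both Lag3 and Havcr2 and the thinned ratio was 1.04 to 2.31. The commonest combination of at least 2 receptors, unthinned, was Tigit with Cd160 in vehicle IgG 2 (4.62% of CD8 T cells) and in mavrilimumab 2 (10.8%), but Pdcd1 with Tigit in mavrilimumab 1 (3.56%) and Cd160 with Btla in vehicle IgG 1 (5 of 70 cells, 7.14%).

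A few other genes moved with Pdcd1 in CD8 T cells. Of 12 other inhibitory receptors tested, 2 rose: Entpd1, the ectonucleotidase CD39 (log2 0.64), and Cd101 (0.59), with edgeR adjusted p of 0.028 and 0.045. Of 8 costimulatory receptors, Tnfrsf18, which encodes GITR, rose (0.60), and of 8 ligands Cd86 rose (0.56). Of 16 transcription factors, Nfatc1, which is activated downstream of the T cell receptor, rose (0.47), with edgeR adjusted p of 0.043. Of 6 genes of naive or memory T cells, Klf2, a factor that maintains quiescence, fell by 1.47, and the list's median was -1.79 against 0.016 over all genes. Of 8 cytotoxic effectors, Nkg7 rose (0.41), and of 7 proximal signalling genes 0 passed (lowest edgeR adjusted p 0.078). Calls of list genes, here and below, were read in the reported fit only, not without doublets or cells of more than 1 rule. The part of the microglial transcripts found in the CD8 T sums was not tested.

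In other CD4 T cells, tested in both mavrilimumab libraries, Tigit was at 245 CPM with Pdcd1 and 84.9 without in mavrilimumab 1, and at 85.1 and 18.5 in mavrilimumab 2. The difference of 1.73 (SE 0.22, edgeR adjusted p = 0.021) made 1 of 6 members called, where 0.174% of genes were. The call was lost when cells meeting more than 1 group's rule, or those with the highest doublet scores, were left out (adjusted p = 0.13 and 0.14). Of the fixed lists, 1 gene passed in these cells, the transcription factor Tox2 (log2 2.62, edgeR adjusted p = 0.021), and the other lists gave 0.

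In Treg cells, Tigit was at 404 CPM with Pdcd1 and 262 without in mavrilimumab 1, and at 230 and 116 in mavrilimumab 2 (log2 0.75, SE 0.16, edgeR adjusted p = 0.00043). Lag3 was at 96.7 and 34.3 CPM in mavrilimumab 1 but at 13.5 and 13.6 in mavrilimumab 2 (log2 1.28, SE 0.31, edgeR adjusted p = 0.0050), so only mavrilimumab 1 showed the difference. That made 2 of 6 members, where 1.05% of genes were called. Both calls were lost with DESeq2 (adjusted p = 1.0) and when cells meeting more than 1 rule were left out (0.29 for Tigit, 0.39 for Lag3), and Lag3 also without the highest doublet scores (0.10). DESeq2 called 3 genes of all in this comparison against 99 by edgeR, so the list calls that follow are those of the edgeR fit. Of the naive or memory genes, Klf2 (-1.34), Lef1 (-0.99) and S1pr1 (-0.90) fell, and of 8 costimulatory receptors 3 rose, namely Tnfrsf9 (1.01), Tnfrsf4 (0.65) and Tnfrsf18 (0.42). Of 15 transcription factors 4 rose, Tox (0.92), Nr4a1 (1.56) and Batf (0.81) among them, and Bach2 fell (-0.91), while 2 of 12 other inhibitory receptors, Cd200r1 (0.95) and Klrg1 (1.07), rose.

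Clonal expansion was read from the paired TCR chains. A pair was found for 84.6% of CD8 T cells in mavrilimumab 1, 89.3% in mavrilimumab 2 and 87.1% in vehicle IgG 1, and 59.7%, 32.7% and 8.20% of these were in clones of at least 2 cells. These were 1664, 1677 and 61 paired CD8 T cells in that order, and the TCR files joined to them held 4811, 2453 and 177 paired cells. A second cell of a clone is seen less often where fewer cells are read, so the share of vehicle IgG 1 cannot be compared with the others. The mavrilimumab libraries had similar numbers of paired CD8 T cells. Their shares are 1 library against 1, and the difference was not tested. Pdcd1 was at 253 CPM in expanded and 66.3 CPM in single clones of mavrilimumab 1, and at 145 and 45.9 CPM in mavrilimumab 2. It rose by 1.75 on the log2 scale (SE 0.10, edgeR adjusted p = 0.034), the only member called of 7, where 0.145% of genes were. Vehicle IgG 1 held 5 cells in expanded clones and was not in this test, which therefore compares clones within the mavrilimumab-labelled libraries only.

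**Figure D4:**
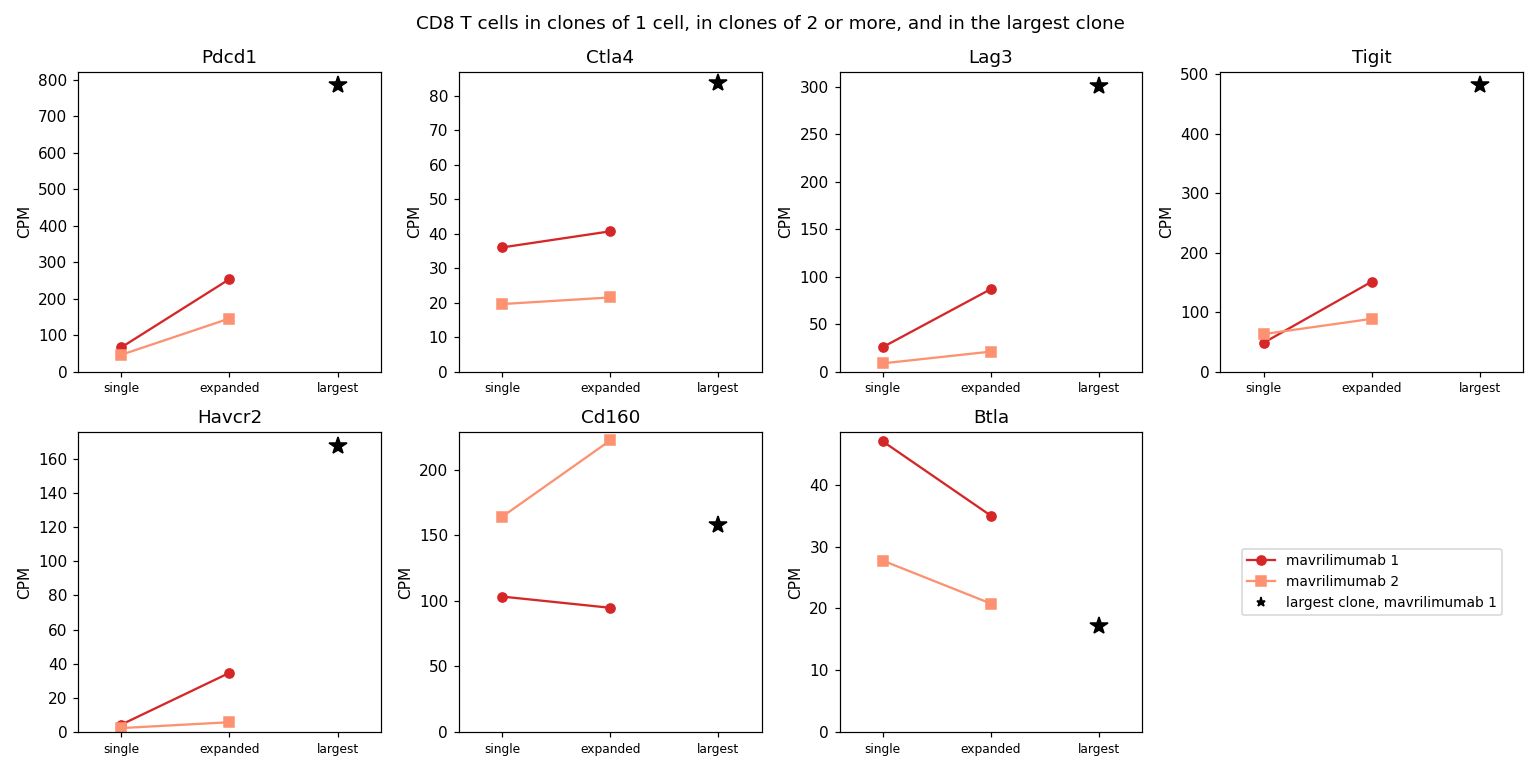
Levels (CPM, linear axes from 0) of the 7 receptors in CD8 T cells of single and expanded clones in the mavrilimumab libraries, with the largest clone as a star. Pdcd1, Lag3 and Havcr2 are higher in expanded clones in both libraries and higher still in the largest clone, while Btla is lower.

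Lag3 was at 86.9 and 25.8 CPM in expanded and single clones of mavrilimumab 1 and at 21.0 and 8.64 in mavrilimumab 2 (log2 1.48, SE 0.16, edgeR adjusted p = 0.083), and Havcr2 at 34.6 and 4.21 and at 5.62 and 2.19 (log2 2.12, SE 0.44, edgeR adjusted p = 0.18). Tigit (log2 0.97, SE 0.35, edgeR adjusted p = 0.43) was also higher in both libraries. Ctla4 and Cd160 differed by 0.12 and 0.14, Cd160 in opposite directions in the 2 libraries, and Btla by -0.46 (edgeR adjusted p = 0.21). Of the fixed lists, the chemokine Ccl5 alone rose (log2 0.97). In the CD4 T cells of mavrilimumab 1, the only library with at least 20 cells of both classes and so without a test, Tigit was at 213 CPM in expanded and 79.7 in single clones and Pdcd1 at 238 and 146. In its Treg cells Pdcd1 was at 291 and 169 CPM, Tigit at 399 and 245, and Ctla4 at 524 and 492.

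One clone of mavrilimumab 1 stood apart. It held 151 CD8 T cells, 7.68% of the group, was found in no other library with a TCR file, and supplied 29.7% of the group's Pdcd1 UMIs, 32.4% of Lag3, 27.9% of Tigit and 55.4% of Havcr2. The clone was picked for its size, so its values are a description. The receptors of the 5 CD8 T clones of at least 20 cells in mavrilimumab 1 differed, and the CDR3 bases of clones 1 and 4 by size, the ones with most receptors, are shown because they identify these clones.
Clone 1 alpha (TRAV16, TRAJ57): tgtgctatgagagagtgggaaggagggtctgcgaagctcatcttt
Clone 1 beta (TRBV12-2, TRBJ1-1): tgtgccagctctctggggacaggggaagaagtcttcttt
Clone 4 alpha (TRAV3N-3, TRAJ7): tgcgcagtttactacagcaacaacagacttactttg
Clone 4 beta (TRBV31, TRBJ1-2): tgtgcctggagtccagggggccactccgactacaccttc

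In clone 1, Pdcd1 was detected in 88.1% of cells (exact 95% interval 81.8% to 92.8%), Tigit in 82.1% (75.1% to 87.9%), Lag3 in 69.5% (61.5% to 76.8%) and Havcr2 in 41.7% (33.8% to 50.0%). The other 1816 CD8 T cells of the library gave 31.7%, 24.8%, 15.7% and 3.52% in the same order. The intervals cover counting error only. At least 3 receptors were detected in 82.8% of cells of the clone and 15.0% of the other cells, although the clone was shallower, at a median of 3731 against 4809 UMIs. Btla went the other way, in 5.96% of cells of the clone and 18.4% of the others, and Ctla4 was in 22.5% and 12.8%.

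The 6 clones of at least 20 CD8 T cells did not share 1 pattern. Clone 4 of mavrilimumab 1 (25 cells) resembled clone 1, with Pdcd1 in 84.0%, Tigit in 72.0%, Lag3 in 64.0% and Havcr2 in 24.0% of cells. Clone 2 (44 cells) had Pdcd1 in 47.7% and Lag3 in 15.9%, and clone 3 (28 cells) and clone 5 (20 cells) had no cell with a Havcr2 UMI. The only such clone of mavrilimumab 2 (20 cells) had Cd160 in 75.0% and Btla in 25.0% of cells, with Pdcd1 in 40.0%.

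**Figure D5:**
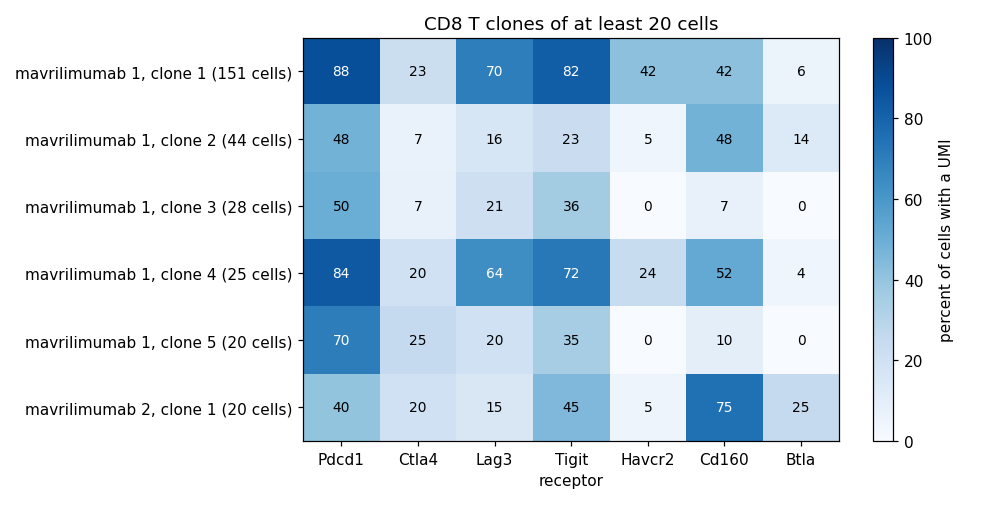
Percent of cells with a UMI of each receptor in the 6 CD8 T clones of at least 20 cells (colour and printed value, unthinned; rows are clones with their cell numbers). Clones 1 and 4 of mavrilimumab 1 have Pdcd1, Lag3 and Tigit in at least 64.0% of cells, and the clone of mavrilimumab 2 has Cd160 in 75.0%.

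Results were also computed without clone 1. In CD8 T cells by treatment label, the log2 difference of Havcr2 became 0.78, that of Lag3 1.68, that of Pdcd1 0.79 and that of Tigit 0.77, none of them called. Thinned CD8 T cells of mavrilimumab 1 with at least 2 receptors fell to 6.28%, still the highest share of the 4 libraries. Expanded against single clones gave Pdcd1 at 1.48, still called, and Pdcd1-detected against undetected CD8 T cells gave Lag3 at 1.75 and Ctla4 at 0.93, both still called.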

How the data were processed

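Brain libraries made with the 10x 5' kit were deposited by the authors as unfiltered UMI counts per gene and barcode on mm10, with Cell Ranger (7 and 7.1.0) and Scanpy (1.8.2) named in the submitters' processing notes, and TCR contigs with CDR3 sequences per barcode. A TCR file titled vehicle IgG 2 was not analysed here. The 7 members and all gene lists were chosen with earlier results of these data known. The rule for the lists was to give the counts called in each direction and to name at most 4 genes of lowest adjusted p, and the 3 genes most like a member. Genes called in fits with 1 vehicle library are counted but not named, and 1 gene of the lists, with the count it enters, is not reported here.

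Counts were summed per library and cell group (at least 20 cells) and tested with edgeR 4.0.16 in R 4.3.3 (filterByExpr, TMM, robust quasi-likelihood, two-sided, adjusted p 0.05). The scripts were tested on simulated data. DESeq2 1.42.0 was an alternative, as were other UMI minimums, no filter on low counts, cells of 1 rule only, doublet scores and leaving out each library. High doublet scores were removed at an assumed 0.8% per 1000 cells. Shares have exact binomial intervals. The library is the replicate, and total UMIs ran from 24354457 to 148657643 per library. Promoters came from RefSeq. Removal of the largest clone was chosen after seeing the data.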

Additional observations from a re-analysis of the deposited data

How the results depend on the processing

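Of 685 values recomputed under an alternative other than leaving out 1 library, over 97 results, 636 were labelled the same. Of the rest, 20 lost a call, 11 gained one, 9 were counts that moved by over 1.5 times and 9 turned direction. The same meant direction and side of the threshold for a fitted difference, direction alone for a share, and a move within 1.5 times for a count. Some alternatives could not move a result, as leaving out the largest clone in NK cells returned the reported fit. Calls of members with Pdcd1 in other CD4 T cells (1) became 3 with no filter on low counts, and 0 with cells of 1 rule only or without the highest doublet scores. In Treg cells (2) they became 0 with DESeq2 and with cells of 1 rule only, and 1 without the highest doublet scores. Calls by clone (1) became 4 with no filter and 2 with DESeq2 or with clones of at least 3 cells. Leaving out 1 library gave 18 to 34 calls between cell groups (18 without mavrilimumab 2) and 0 to 4 by treatment in microglia (4 without vehicle IgG 1, where 4842 of 14413 genes were called, and 3 without vehicle IgG 2, where 925 of 14583 were), and 2 to 3 with Pdcd1 in CD8 T cells.

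The differences that turned were Treg Ctla4 by treatment to 0.0924 (no filter), 0.0726 (at least 2000 UMIs) and 0.18 (cells of 1 rule), Cd160 with Pdcd1 to 0.00450 in other CD4 T and -0.48 in Treg cells and Btla to 0.0277 in Treg cells (without the highest doublet scores), Ctla4 by clone to -0.0017 (largest clone left out) and the CD8 T share with Ctla4 by treatment to 0.27 points (no thinning). Leaving out 1 library moved CD8 T Ctla4 between -0.73 and 0.25, Cd160 between -0.13 and 0.90, Btla between -0.76 and 0.69, other CD4 T Pdcd1 between -0.78 and 1.75 and microglial Lag3 between -1.01 and 2.82 on the log2 scale, and the thinned CD8 T shares of Cd160 between -1.23 and 3.58 and of Btla between -3.20 and 1.09 points. The causes were not tested.

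The replicate block was fitted although nothing in the labels says that a number pairs the libraries (same-numbered correlations 0.30, 0.13 and 0.24 over 2 pairs in CD8 T, other CD4 T and microglia). It called 0 members in CD8 T cells and turned microglial Lag3 to 0.84. Genes called by treatment ranged over the alternatives from 0 to 25 in CD8 T cells, 54 to 730 in Treg cells, 0 to 21 in other CD4 T cells, 195 to 1937 in NK cells and 0 to 4842 in microglia. By Pdcd1 they ranged from 108 to 939 in CD8 T cells (127 in the reported fit), 0 to 187 in other CD4 T cells (18) and 3 to 96 in Treg cells (99), and by clone from 3 to 982 (17). Between cell groups they ranged from 8 to 1057 for CD8 T minus Treg (603), 3 to 544 for CD8 T minus other CD4 T (252), 5 to 1095 for CD8 T minus NK (781), 0 to 157 for Treg minus other CD4 T (14), 41 to 1137 for Treg minus NK (823) and 65 to 1629 for other CD4 T minus NK (1259). Against microglia they ranged from 4557 to 8374 for CD8 T (7809), 2049 to 6325 for Treg (5410), 4122 to 7698 for other CD4 T (7031) and 1384 to 5811 for NK cells (5043). For the difference of the treatment contrast they ranged from 0 to 21 against other CD4 T cells and 0 to 154 against microglia. Removal of doublets for Treg cells by treatment, the minimum of 2000 UMIs for NK cells, and leaving out a library of the clone comparison could not be run, since too few cells or no residual degrees of freedom remained. The 70 CD8 T cells of vehicle IgG 1 and the single vehicle library of Treg and NK cells limit every comparison by treatment.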
